A study of Mus musculus with 6 samples.

Results

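The genes of the glutamate receptors and of the scaffold that holds them at the excitatory synapse were compared between the hemispheres in the entorhinal cortex (EC), a gateway between neocortex and hippocampus. The tissue came from wild-type C57BL/6 mice aged 6 months that received no treatment, and each side had 3 Affymetrix Mouse Gene 2.0 ST arrays, labelled as biological replicates. Whether samples of opposite sides were taken from 1 mouse is not stated in the labels. Members were the rows of the authors' table of all genes whose symbol names a subunit of an AMPA, NMDA, kainate, delta or metabotropic glutamate receptor, one of their auxiliary subunits (Cacng, Cnih, Neto), a scaffold gene (Dlg, Dlgap, Shank, Homer2, Homer3) or an excitatory adhesion gene (Nlgn1, Nlgn3, Lrrtm). This rule found 42 rows of 39 genes among the 20414 rows of 18746 genes in the table, and it used no measured value. The other 17 symbols that the rule can match were not analysed here, among them Grin2a, Grin3a, Grik4, Grm4, Cacng2, Dlg2, Dlg4, Homer3 and Nlgn3.

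Glutamate is the main excitatory transmitter of the cortex. AMPA receptors carry most of the fast synaptic current, NMDA receptors admit calcium when glutamate and depolarisation coincide, kainate receptors act on both sides of the synapse, and metabotropic receptors signal through G proteins. Scaffold proteins of the postsynaptic density link these receptors to each other, to signalling enzymes and to adhesion molecules that span the cleft.

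For each row the table gives a fold and a p-value of the left-right comparison and no value per array. The deposited per-array values carry row numbers, and none of the files or reference tables links them to gene names, so no mean, SD or single-array value of a receptor gene can be printed, and a level above background could not be checked. A positive fold was taken to mean more signal in the left EC. That is the likely coding, because the title line puts left first, but it could not be checked gene by gene against the per-array values. An implied 95% interval was computed from each fold and p-value, as the wider of the intervals that a Student quantile with 4 degrees of freedom and a normal quantile give. The tissue was taken whole, so fewer cells of a type and less RNA per cell cannot be told apart.

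No receptor or scaffold gene passed Benjamini-Hochberg adjustment over all 20414 rows, where 0 rows passed and the smallest adjusted p was 0.554. At a deposited p under 0.05, 2 of the 42 rows (4.76%) differed in the authors' deposited table, against 1660 of all rows (8.13%), so the members' share was no higher than that of the table. These were Grik2 (glutamate receptor, kainate type), higher in the right EC, and 1 of the 2 rows of Grm6 (a metabotropic receptor best known from retinal ON bipolar cells), higher in the left EC. The members divided into 25 rows higher in the left EC (59.5%) and 17 on the right, against 54.1% of all rows on the left, with a median log2 fold of 0.01, the same as that of all rows to 2 decimals. The largest member fold in the authors' deposited table was 1.12. By direction the calls were 1 row to the left, against 3.81% of all rows, and 1 to the right, against 4.33%. At a deposited p under 0.01 the members had 0 rows (1.66% of all rows), at a deposited p under 0.1 they had 6 (14.8%), and at 0.05 with at least 1.1-fold they had 1 (6.64%).

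**Figure D1:**
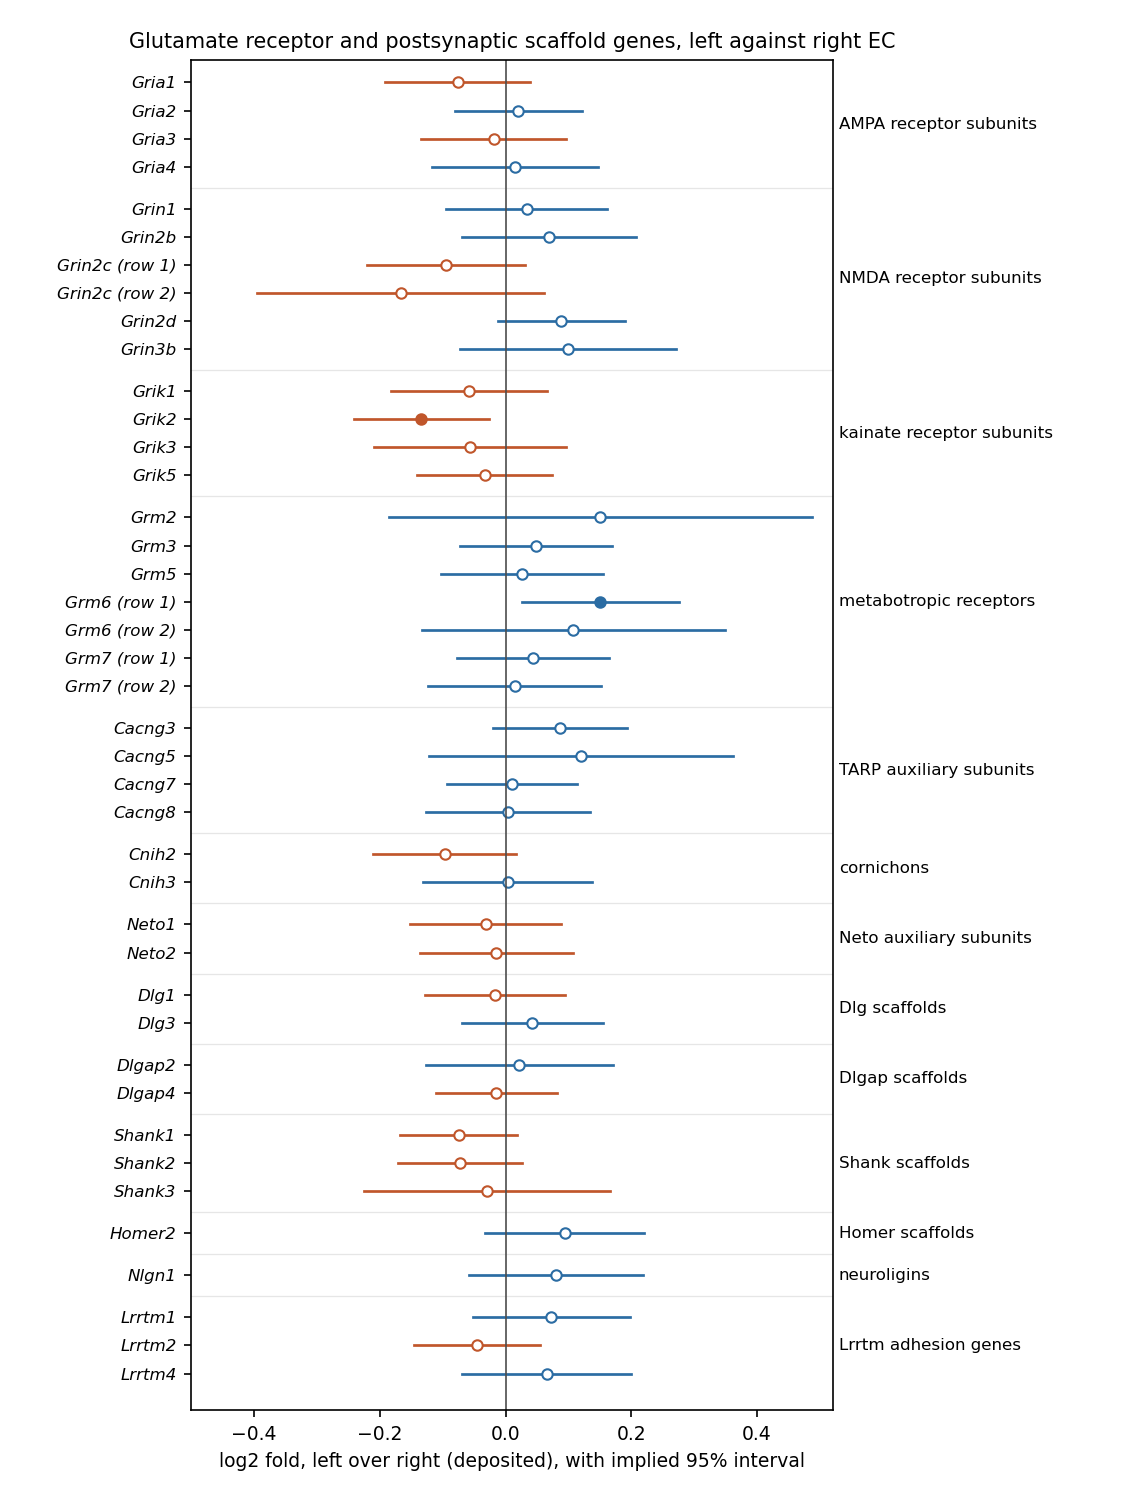
Log2 fold, left over right, of the member rows described in the text, by family, in the authors' deposited table (x axis), each with its implied 95% interval as a bar. Filled points have a deposited p under 0.05, which are Grik2 and a row of Grm6, blue marks rows higher in the left EC and orange rows higher in the right EC. Bars of all other plotted rows cross 0.

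The promoter windows of 4 genes are printed as the genomic context of these transcripts. Grik2 and a row of Grm6 had a deposited p under 0.05. Grin2c and Grm2 had the largest fold to the right (p = 0.113) and to the left (p = 0.28 by the authors' deposited table). Each window holds the 250 bases before the gene's start in RefSeq on GRCm38.p6, 5′ to 3′ on the gene's strand, at chr10:49788755-49789004 (minus strand) for Grik2, chr11:115267244-115267493 (minus strand) for Grin2c, chr11:50850435-50850684 (plus strand) for Grm6 and chr9:106656110-106656359 (minus strand) for Grm2. Capitals mark matches to GGGCGG, the core of the Sp1 site, on either strand, and overlapping matches run together.
Grik2: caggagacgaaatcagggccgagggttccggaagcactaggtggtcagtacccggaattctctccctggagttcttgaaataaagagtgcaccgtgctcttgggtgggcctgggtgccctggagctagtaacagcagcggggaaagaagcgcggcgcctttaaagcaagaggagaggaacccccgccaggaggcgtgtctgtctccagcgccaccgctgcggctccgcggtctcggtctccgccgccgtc
Grin2c: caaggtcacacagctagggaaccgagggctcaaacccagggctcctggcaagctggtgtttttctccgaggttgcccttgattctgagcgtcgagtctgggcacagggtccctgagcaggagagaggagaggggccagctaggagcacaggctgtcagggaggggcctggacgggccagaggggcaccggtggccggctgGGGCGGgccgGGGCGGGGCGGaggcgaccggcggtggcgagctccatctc
Grm6: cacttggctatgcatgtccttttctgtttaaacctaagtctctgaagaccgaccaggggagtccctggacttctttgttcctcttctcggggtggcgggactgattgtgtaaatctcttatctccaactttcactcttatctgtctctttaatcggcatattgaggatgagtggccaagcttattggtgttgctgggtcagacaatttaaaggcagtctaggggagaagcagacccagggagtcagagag
Grm2: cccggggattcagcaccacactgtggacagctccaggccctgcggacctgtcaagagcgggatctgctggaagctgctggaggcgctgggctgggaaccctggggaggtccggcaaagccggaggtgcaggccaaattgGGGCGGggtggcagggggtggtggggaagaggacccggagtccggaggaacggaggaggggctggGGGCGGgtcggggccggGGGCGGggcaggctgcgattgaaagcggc
The windows of Grin2c and Grm2 each held 3 matches to GGGCGG and those of Grik2 and Grm6 held 0. Of the 39 genes 28 had a window in the table, 38 windows in all, and 18 of these (47.4%) held GGGCGG, against 32.7% of 32851 windows of the same length. Member windows were also richer in G and C, at a median of 58.8% against 52.4%, and the part of this in the GGGCGG share was not tested. The cyclic AMP response element TGACGTCA was found in 0 of the 38 member windows and in 1.55% of all windows, and TATAAA in 10.5% and 12.4%. The arrays measured transcripts, so these letters describe the windows and bear on no factor.

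AMPA receptors are tetramers of the subunits encoded by Gria1 to Gria4, and none of the 4 genes had a deposited p under 0.05. Gria1 was 1.05-fold higher in the right EC (p = 0.141 by the authors' deposited table), with an implied interval from 1.14-fold higher in the right EC to 1.03-fold higher in the left EC. Gria2, whose edited subunit makes the channel impermeable to calcium, was 1.01-fold higher in the left EC (p = 0.601 by the authors' deposited table). Its implied interval was among the narrow ones, from 1.06-fold higher in the right EC to 1.09-fold higher in the left EC. Gria3 was 1.01-fold higher in the right EC (deposited p = 0.669) and Gria4 1.01-fold higher in the left EC (p = 0.764 by the authors' deposited table). For all 4 the implied interval lay within 1.2-fold either way.

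NMDA receptors combine the obligatory subunit of Grin1 with subunits of the Grin2 and Grin3 genes. The 4 rows of Grin1, Grin2b, Grin2d and Grin3b lay to the left and both rows of Grin2c to the right, and none of the 6 reached a deposited p under 0.05. Grin1 was 1.02-fold higher in the left EC (p = 0.509 by the authors' deposited table). Grin2b, which encodes the subunit that dominates early in forebrain development, was 1.05-fold higher in the left EC (p = 0.237 by the authors' deposited table). Grin2d, a subunit gene found in many interneurons, had the smallest p of the family, 1.06-fold higher in the left EC (p = 0.0721 by the authors' deposited table). Grin3b, a glycine-binding subunit gene, was 1.07-fold higher in the left EC (p = 0.186 by the authors' deposited table). Grin2c, best known from cerebellar granule cells and from astrocytes and thalamus in the forebrain, had rows 1.07-fold (deposited p = 0.105) and 1.12-fold (deposited p = 0.113) higher in the right EC by the authors' deposited table. The row with the larger fold had the wider implied interval, from 1.31-fold higher in the right EC to 1.04-fold higher in the left EC. Averaging both rows gave 1.09-fold to the right (p = 0.109 from the mean z of the authors' deposited table, with the rows taken as fully correlated).

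Astrocyte and thalamic marker genes lay to the same side as Grin2c. All 5 measured astrocyte markers were higher in the right EC by the authors' deposited table, between 1.02-fold for Gfap and 1.06-fold for the glutamate transporter Slc1a2 (deposited p = 0.0496). All 3 measured thalamic markers were higher in the right EC with a deposited p under 0.05 by the authors' deposited table. They were Prkcd (1.18-fold), Tcf7l2 (1.11-fold) and Calb2 (1.203-fold). Of all rows, 54.1% lay to the left and 8.13% had a deposited p under 0.05. The marker lists were chosen with earlier results of these data known. Grm3, also found in astrocytes, lay to the left at 1.03-fold (p = 0.33 by the authors' deposited table). Grin2d, found in many interneurons, lay to the left at 1.06-fold (p = 0.0721 by the authors' deposited table), and 5 of 6 interneuron marker rows to the right. The part of these markers in the Grin2c, Grm3 and Grin2d values was not tested.

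The kainate receptor genes all lay to the right, and so did both genes of their auxiliary subunits. Grik2, encoding a principal kainate subunit, was 1.097-fold higher in the right EC (deposited p = 0.0145, adjusted p = 0.577 over all rows) by the authors' deposited table. Its implied interval ran from 1.02-fold to 1.18-fold higher in the right EC, and 2.47% of all rows had a smaller p. Grik1 and Grik3, genes of the other subunits that form channels by themselves, were 1.04-fold (deposited p = 0.261) and 1.04-fold (deposited p = 0.361), and the gene of the obligate partner Grik5 1.02-fold higher in the right EC (p = 0.436 by the authors' deposited table). Neto1 and Neto2, which encode transmembrane proteins that slow the gating of kainate receptors, were 1.02-fold (deposited p = 0.499) and 1.01-fold (deposited p = 0.758) higher in the right EC by the authors' deposited table. Except for Grik2, each of these 6 genes had an implied interval that held values on both sides of equality. Genes of 1 family are not replicates, and the direction they shared was not tested.

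Marker genes of the striatum and amygdala, a neighbouring territory, lay to the same side as Grik2. All 6 that were measured were higher in the right EC by the authors' deposited table, with a median log2 fold of -0.19. Among those with a deposited p under 0.05 by the authors' deposited table were the adenosine receptor gene Adora2a (1.98-fold), the tachykinin gene Tac1 (1.13-fold) and Rgs9 (1.15-fold). Drd1a at 1.06-fold (deposited p = 0.344) and Pde10a at 1.01-fold (p = 0.645 by the authors' deposited table) differed less. Of 6 interneuron marker rows 5 lay to the right, with the vesicular GABA transporter Slc32a1 at 1.101-fold (deposited p = 0.0322) and, in a further row, 1.15-fold (p = 0.0755 by the authors' deposited table). All 7 measured choroid plexus markers, from Aqp1 at 1.58-fold to Ttr at 5.59-fold, also lay to the right by the authors' deposited table. Of the remaining marker lists, 3 of 4 hippocampal, 4 of 5 oligodendrocyte and 4 of 5 microglial genes lay to the right, and 3 of 5 meningeal and 2 of 3 endothelial genes to the left. These lists were chosen with earlier results of these data known. Of all rows, 54.1% lay to the left and 8.13% had a deposited p under 0.05. Whether any of these markers account for the Grik2 value was not tested.

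Each metabotropic receptor gene described here lay to the left, as did 54.1% of all rows. Genes of 1 family are not replicates, and this shared direction was not tested. Grm5, which encodes a Gq-coupled receptor of group I, was 1.02-fold higher in the left EC (p = 0.601 by the authors' deposited table). Among the Gi-coupled group II receptors, Grm2, a presynaptic autoreceptor, was 1.11-fold higher in the left EC (p = 0.28 by the authors' deposited table). The implied interval of Grm2 was the widest of all members, from 1.14-fold higher in the right EC to 1.401-fold higher in the left EC. Grm3, which is also found in astrocytes, was 1.03-fold higher in the left EC (p = 0.33 by the authors' deposited table). Of the group III receptors, Grm6 had a row 1.11-fold higher in the left EC (deposited p = 0.0175, adjusted p = 0.578 over all rows) and a second row at 1.08-fold (p = 0.284 by the authors' deposited table). The first row had an implied interval from 1.02-fold to 1.21-fold higher in the left EC. Averaging both rows gave 1.09-fold (p = 0.0846 from the mean z of the authors' deposited table), above the threshold. That p takes both rows as fully correlated, and independent rows would give a smaller p. Both rows of the presynaptic receptor gene Grm7 lay to the left, at 1.03-fold (deposited p = 0.374) and 1.01-fold (p = 0.787 by the authors' deposited table).

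Most measured pyramidal and layer 2 marker genes also lay to the left. Of 5 measured pyramidal neuron markers 4 were higher in the left EC by the authors' deposited table, with the transcription factor Tbr1 at 1.13-fold (deposited p = 0.0346). The other, Camk2a, was 1.03-fold higher in the right EC (p = 0.246 by the authors' deposited table). The layer 2 genes Reln and Wfs1, which mark EC principal cells, were 1.13-fold (deposited p = 0.1) and 1.05-fold (deposited p = 0.208) higher in the left EC by the authors' deposited table. Of all rows, 54.1% lay to the left and 8.13% had a deposited p under 0.05. These lists were chosen with earlier results of these data known. The part of these markers in the metabotropic receptor values was not tested. No level of a defining marker can be given because the table holds folds alone.

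**Figure D2:**
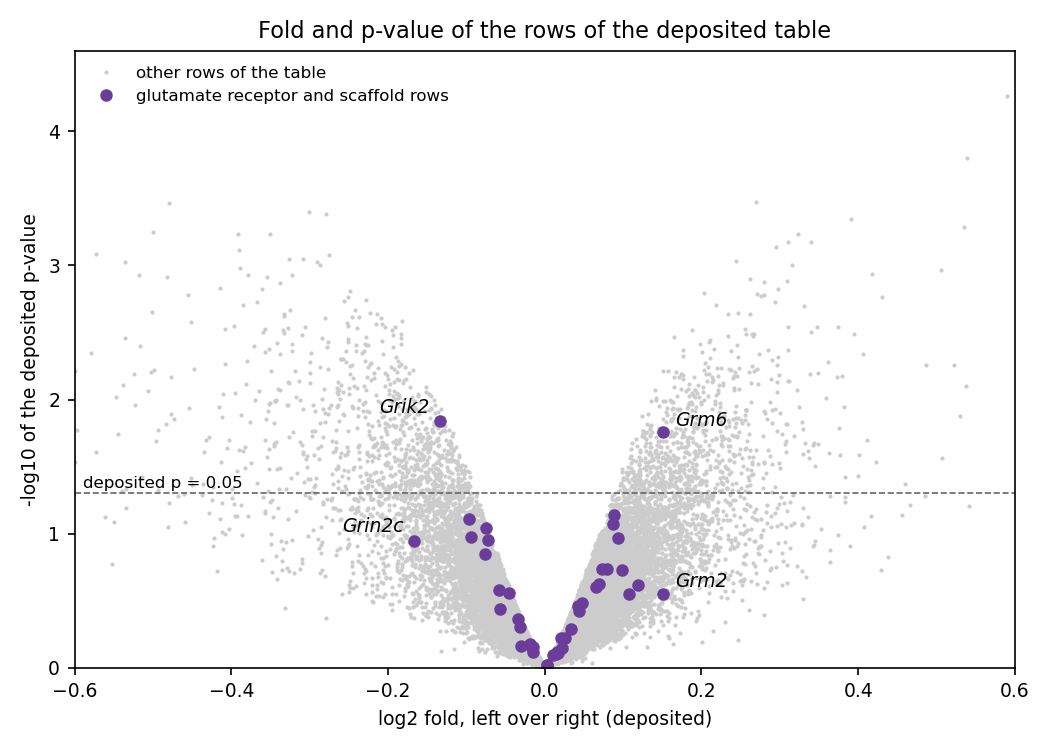
Each point is a row of the authors' deposited table, placed by its log2 fold, left over right (x axis), and by −log10 of its deposited p-value (y axis), with the 42 member rows in purple. Grik2 and a row of Grm6 lie above the dashed line, the threshold of 0.05, and the other members below it. The 38 rows with a log2 fold beyond 0.6 either way, none of them a member, are not drawn.

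The auxiliary subunits of AMPA receptors govern their export, synaptic anchoring and gating. The 4 measured TARP genes (transmembrane AMPA receptor regulatory proteins) lay to the left, with 2 of them close to equality. The direction these genes shared was not tested, and 54.1% of all rows lay to the left. Cacng3 was 1.06-fold higher in the left EC (deposited p = 0.0853) and Cacng5, an atypical TARP gene, 1.09-fold (p = 0.242 by the authors' deposited table). Cacng8, the TARP gene abundant in hippocampus, was at 1.002-fold (deposited p = 0.948) and Cacng7 at 1.007-fold (p = 0.799 by the authors' deposited table). The implied interval of Cacng5 reached 1.28-fold to the left, beyond that of the other 3. Among the cornichons, which escort AMPA receptors through the secretory pathway, Cnih2 was 1.07-fold higher in the right EC (deposited p = 0.0777) and Cnih3 was at 1.002-fold (p = 0.948 by the authors' deposited table).

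Scaffold genes differed by at most 1.07-fold, and none reached a deposited p under 0.05. The 3 Shank genes, which encode the master scaffolds of the deep postsynaptic density, all lay to the right. The direction these genes shared was not tested. Shank1 was 1.05-fold (deposited p = 0.0904), Shank2 1.05-fold (deposited p = 0.111) and Shank3 1.02-fold higher in the right EC (p = 0.69 by the authors' deposited table). Dlg1 (SAP97) was 1.01-fold higher in the right EC (deposited p = 0.706) and Dlg3 (SAP102) 1.03-fold higher in the left EC (p = 0.349 by the authors' deposited table). Dlgap2 and Dlgap4, which link the Dlg and Shank layers, were 1.02-fold higher in the left EC (deposited p = 0.707) and 1.01-fold higher in the right EC (p = 0.695 by the authors' deposited table). Homer2, which ties group I metabotropic receptors to the scaffold, was 1.07-fold higher in the left EC (p = 0.107 by the authors' deposited table).

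Adhesion genes of the excitatory synapse showed a like range. Nlgn1, encoding the neuroligin found at glutamatergic synapses, was 1.06-fold higher in the left EC (p = 0.185 by the authors' deposited table). Lrrtm1 and Lrrtm4, leucine-rich repeat partners of presynaptic neurexins and heparan sulphate proteoglycans, were 1.05-fold on the left (deposited p = 0.182 and 0.248) by the authors' deposited table. Lrrtm2, a neurexin ligand, lay to the right at 1.03-fold (p = 0.278 by the authors' deposited table).

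No receptor or scaffold row had a fold above 1.12 in either direction. The median fold of the members, in either direction, was 1.04, as for all rows of the authors' deposited table. Folds of at least 1.1 were found in 3 of 42 member rows (7.14%), against 14.2% of all rows. The implied interval lay within 1.2-fold either way for 36 of the 42 member rows (85.7%), against 65.1% of all rows. The 6 rows whose interval went further were 1 of Grin2c, both of Grm6 and those of Grin3b, Grm2 and Cacng5. Within 1.1-fold lay 7 member rows (16.7%, against 13.3% of all rows), those of Gria2, Gria3, Cacng7, Cacng8, Neto2, Dlg1 and Dlgap4. Intervals of the unnamed per-array rows had a smaller median width over rows brighter than the median row, as given below. The signal level of the members could not be checked, and its part in these shares was not tested. Except for Grik2 and the first row of Grm6, each member interval held equality, and it also held differences on both sides that these 3 arrays a side leave possible.

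**Figure D3:**
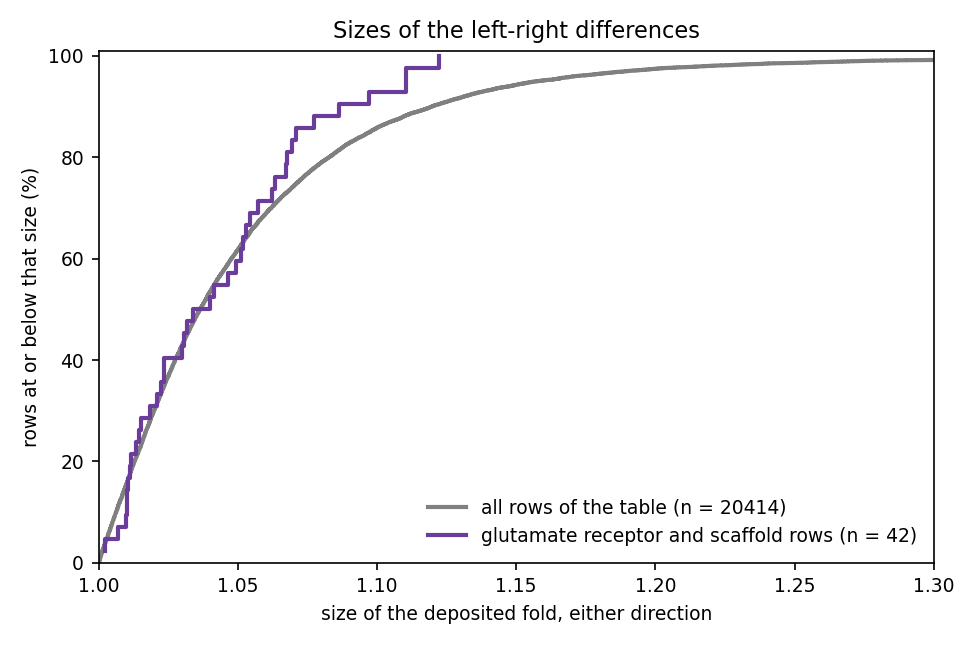
Share of rows (y axis, in percent) whose deposited fold, in either direction, is at or below the size on the x axis, for all 20414 rows (grey) and for the 42 member rows (purple). Both curves pass 50% at a fold near 1.04, and the member rows end at 1.12 while the curve of all rows goes on.

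Related genes outside the receptor and scaffold families were described from 4 further lists. Of the 19 measured partners of AMPA receptors, 13 were higher in the left EC and 1 had a deposited p under 0.05 by the authors' deposited table, which was Gsg1l, an auxiliary subunit gene, at 1.17-fold on the left (deposited p = 0.0113). Next in that list came Nptx2, a pentraxin that clusters AMPA receptors, at 1.12-fold on the left (p = 0.0784 by the authors' deposited table). Of 31 other scaffold and signalling genes, 14 were higher in the left EC and 17 on the right by the authors' deposited table, and Dlg5 alone had a deposited p under 0.05 (1.07-fold on the right, p = 0.0458). Of 30 rows of adhesion genes, 20 were higher in the left EC by the authors' deposited table, and Nrxn2, a presynaptic neurexin gene, alone had a deposited p under 0.05 (1.13-fold on the right, p = 0.0352). Of 18 rows of glutamate transport and metabolism, 8 were higher in the left EC by the authors' deposited table. In that list the glutamine transporter Slc38a2 was 1.13-fold higher in the left EC (deposited p = 0.0226), and the astrocyte transporter Slc1a2 1.06-fold higher in the right EC, with the 2 rows of the glutamine synthetase gene Glul at 1.14-fold (deposited p = 0.0551) and 1.01-fold (p = 0.689 by the authors' deposited table) on the right. The shares with a deposited p under 0.05 (1 of 19, 1 of 31, 1 of 30 and 2 of 18 rows) stand beside 8.13% of all rows. The counts of rows higher in the left EC stand beside 54.1% of all rows, and the directions were not tested. The adjusted p was 0.567 or higher for each row of these lists.

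**Figure D4:**
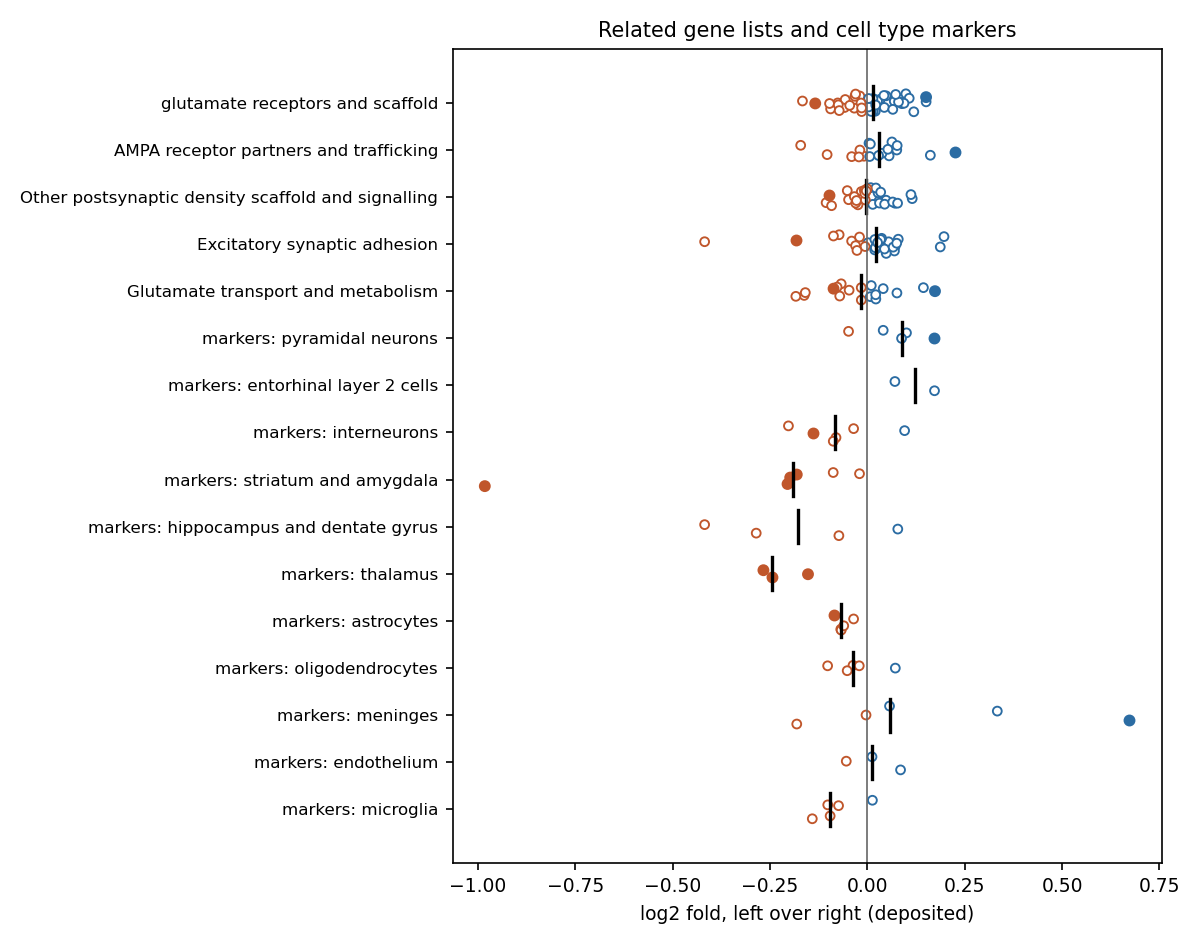
Log2 fold, left over right, of each measured row of the receptor and scaffold genes, the 4 related lists and the cell type marker lists in the authors' deposited table (x axis), 1 list per line. Filled points have a deposited p under 0.05, vertical bars are medians, and vertical scatter within a line has no meaning. The 6 striatal and 3 thalamic markers have negative values, which means higher in the right EC, and the 7 choroid plexus markers are left out.

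The per-array table, whose rows have no gene names, held 41345 rows for the 6 arrays and shows the spread between arrays of a side. The median SD of a row was 0.08 on the left and 0.09 on the right on the log2 scale (SD over 3 arrays). The limma fit called 0 rows at an adjusted p under 0.05 and 3023 rows (7.31%) at an unadjusted p under 0.05, with 1255 (3.04%) leaning left and 1768 (4.28%) leaning right. An unmoderated test per row also called 0 rows after adjustment and 2800 before it. Half-widths of limma's 95% intervals had a median of 0.18 over all rows and 0.14 over rows brighter than the median row. Implied intervals had a median of 0.12 for the members and 0.15 for all rows of the authors' deposited table. The row sets and the tests behind these widths differ.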

How the data were processed

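The arrays, 3 per side, were grouped and numbered by their sample titles. The authors deposited a p-value and a fold for each row of a gene table, made with Ingenuity iReport per the series description. A fold below 0 stands for the inverse ratio, right over left. No source used here gives its test or normalization. The authors also deposited log2 signals per array, whose row numbers could not be paired with genes. The members and lists were chosen with earlier results of these data known.

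Each fold was expressed as log2 of left over right, and the deposited p-values were adjusted by Benjamini-Hochberg over all 20414 rows. All 42 member rows were kept, with no filter. Rows of 1 gene were also averaged as log2 folds and as signed z values. The p of a mean z was read from the standard normal, which takes the rows as fully correlated. The planned interval needed the test behind the deposited p-values. Student, Welch, paired and limma tests on the per-array values gave the same fold (to 0.001 log2) and p (to 1%) for at most 1 of 80 rows over 1.4-fold, so the test was not identified. Implied intervals, chosen after the data were seen, assume a symmetric test on the log2 scale with at least 4 degrees of freedom. Applied to limma's own folds and p-values they had a median half-width 1.1 times limma's. None was narrower, which follows from limma's degrees of freedom, 6.09, being above 4. On 41345 simulated rows tested by limma, 95.2% of implied intervals held the true difference. Neither check covers the unidentified test behind the deposited p-values. The per-array values were tested with limma 3.58.1 in R 4.3.3. The number of arrays limits the precision. Values per gene were taken for every row with a deposited p under 0.05, the 3 largest folds per side and the smallest p per family, and remaining members were added. Some genes are not reported here. From other lists up to 5 genes by smallest p, and markers with a deposited p under 0.05, were considered, and further markers were named after their values were seen. All 39 gene IDs carried the same symbol in the GRCm38.p6 gene table. Figures were drawn with matplotlib 3.10.9.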

Additional observations from a re-analysis of the deposited data

How the results depend on the processing

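Of the member rows, 2 had a deposited p under 0.05. The count was 1 when rows of 1 gene were averaged, which left Grik2, and 1 when a fold of at least 1.1 was also required, which left Grm6. It was 0 at a deposited p under 0.01, 6 at a deposited p under 0.1 (14.8% of all rows) and 0 after adjustment over all rows. The p of Grm6 rose from 0.0175 to 0.0846 when its rows were averaged. That p and the averaged count take rows of 1 gene as fully correlated, and independent rows would give Grm6 a smaller p. The median log2 fold of the members stayed above 0, between 0.0033 and 0.0185, in the 4 alternatives run. The number of members with an implied interval within 1.2-fold was 36, and 37 with the Student or the normal quantile alone. No array could be left out for named genes. For the unnamed per-array rows, limma's count at an unadjusted p under 0.05 was 1808 in a fit restricted to rows brighter than the median row (fewer rows tested) and 2104 to 3829 when 1 array was left out. Without the second right array the balance turned, to 1952 rows leaning left against 1877 leaning right, and the cause was not tested. Without the first left array the count was lowest, at 2104. With the replicate number as a block the count was 2790. Deviations of same-numbered arrays correlated at 0.02, -0.09 and 0.05, and 1 of 6 arrays correlated best with its own number. With 3 arrays a side these values cannot decide whether same-numbered samples came from 1 mouse. Adjusted calls were 0 in every alternative, with 2790 to 3249 rows at an unadjusted p under 0.05 in the other settings that used all rows and arrays.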

Other observations

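Among genes that act across the cleft from these receptors, named after their values were seen, the neurexin gene Nrxn3 was 1.01-fold higher in the left EC (p = 0.72 by the authors' deposited table). Cbln1, which encodes a secreted synaptic organiser, was 1.15-fold higher in the left EC (p = 0.403 by the authors' deposited table), a fold larger than that of any receptor gene measured. The vesicular glutamate transporters, which mark glutamatergic terminals and cell bodies, differed in side: Slc17a7, the cortical form, was 1.03-fold higher in the left EC (deposited p = 0.348), and Slc17a6, the form of thalamus and brainstem, 1.12-fold higher in the right EC (p = 0.325 by the authors' deposited table). The 4 genes of the kinase CaMKII, a main enzyme of the postsynaptic density, lay between 1.02-fold and 1.05-fold, with Camk2a on the right and Camk2b, Camk2g and Camk2d on the left, by the authors' deposited table. Homer1, which the rule for members does not hold, was 1.01-fold higher in the left EC (p = 0.842 by the authors' deposited table).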
